A study of Mus musculus with 6 samples.

Results

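Aminoacyl-tRNA synthetases are the enzymes that attach each amino acid to its tRNA. Their genes were followed in RNA-seq counts of mouse muscle stem cells (MuSCs, satellite cells) with and without conditional deletion of *Piezo1*, which encodes a mechanosensitive ion channel. The members were chosen by gene symbol alone, and 40 of the 20654 genes in the count table matched. They are 20 genes for cytosolic enzymes, 17 for mitochondrial enzymes and 3 for scaffold proteins that hold synthetases together. The control mice are called wild type in the labels, and a figure legend of the study gives them as *Pax7*CreERT2/+ in the RNA-seq comparison. The *Piezo1* cKO mice were *Piezo1*flox/flox; *Pax7*CreERT2/+, and both groups were on a C57BL/6 background. Cre was driven from *Pax7* and was active upon tamoxifen in MuSCs only, so other cell types keep their *Piezo1* alleles. MuSCs from uninjured limb muscle were sorted as VCAM1-positive cells, with CD31, CD45 and Sca-1 as negative markers, and cultured for 3 days in growth medium with 30% foetal bovine serum, 10 ng/mL basic fibroblast growth factor and 1 μM of the tamoxifen metabolite 4-OH TMX. Before isolation, deletion was induced in the mice by tamoxifen injected on consecutive days. Whether the control mice of the RNA-seq were injected too is not spelled out in the sources used here. Both groups received 4-OH TMX in culture and, by the figure legend, both carried Cre, so neither of these separates them. The age of the animals used for RNA-seq is not given in the sources used here.

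There were 3 control libraries and 3 libraries labelled *Piezo1* cKO, each made from 500 pg of total RNA with oligo-dT primers and unique molecular identifiers (UMIs). The control libraries 1 to 3 held 740936, 931168 and 891531 counts, and the libraries labelled *Piezo1* cKO held 810096, 726378 and 769295. Levels are given in CPM, counts scaled to a common library total after adjusting the totals by edgeR's TMM factors. At this depth, 3 counts correspond to between 3.27 and 4.21 CPM, and this floor covers counting error only. Since oligo-dT libraries count mainly the 3′ ends of transcripts and the counts were not divided by length, levels are compared between libraries. Where a gene is called the most abundant of a list, this ranks its counts and not molecules per length. The labels do not say whether the libraries of a group came from separate animals, so p-values measure only the spread between these libraries. In bulk samples, fewer cells of a type and less RNA per cell cannot be told apart.

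For *Piezo1* itself, control libraries 1 to 3 gave 11, 5 and 6 counts, against 7, 12 and 9 counts in the *Piezo1* cKO libraries. The groups overlapped, with 9.26 ± 5.38 CPM in control against 11.9 ± 3.36 CPM in cKO (SD, n = 3 each). A two-sided exact permutation test gave p = 0.6, and with 3 libraries a group it can give none smaller than 0.1. *Piezo1* counts were thus not lower in cKO, a name that below stands for the libraries labelled so. Counts placed mainly by the 3′ ends of transcripts cannot separate intact transcripts from those without the floxed exons. No *Piezo1* value here therefore checks which libraries carry the deletion, and every direction given for cKO rests on the labels. Outside these counts, the study measured *Piezo1* by RT-qPCR in control and cKO MuSCs. It also saw calcium influx after a chemical PIEZO1 agonist in control cells and not in cKO cells. The study takes these measurements as evidence that the conditional deletion was effective. From its RNA-seq the study reports muscle differentiation as a gene signature up-regulated in cKO. Transcripts of *Myod1*, the myogenic transcription factor of activated MuSCs, were at 1424 ± 98.4 CPM in control against 1274 ± 203 CPM in cKO (SD, n = 3 each). *Pax7*, which marks MuSCs, had between 5 and 26 counts in each library. Of the 10 tested genes in the list of MuSC and myoblast markers, 6 lay above and 4 below 0 on the log2 scale, and 0 had an adjusted p under 0.05 in edgeR or DESeq2. At an unadjusted p under 0.05 edgeR gave *Cdh15* (0.53), *Sdc3* (0.66) and *Megf10* (0.50) above 0, and *Sdc4* (-0.53) and the sort marker *Vcam1* (-0.45) below it, genes named after their values were seen. Of all genes tested, 6.14% passed this threshold above 0 and 5.78% below it.

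As background, each synthetase recognises 1 amino acid and its tRNAs, and spends ATP to join them, which makes the charged tRNA that the ribosome uses. Cytosol and mitochondria translate separately and mostly use enzymes from different genes, named here without and with the suffix 2. *Gars* and *Kars* are exceptions that encode both forms, and *Eprs* encodes a single protein that charges tRNAs with glutamate and with proline. In the cytosol, part of the enzymes sit in the multi-synthetase complex together with the scaffold proteins encoded by *Aimp1*, *Aimp2* and *Eef1e1*. Myoblasts that proliferate or grow need charged tRNA for protein synthesis, and many cytosolic synthetase genes are textbook targets of ATF4, the transcription factor that responds to a shortage of amino acids.

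The DNA element that ATF4 and C/EBP proteins bind together was looked for in the members' promoters because ATF4 responds to a shortage of amino acids. Promoter sequences came from RefSeq (GRCm38.p6), from 250 bases before to 50 bases after the start listed for each promoter. Of the 40 members 30 matched, with 32 promoters. Those of *Rars*, *Lars*, *Nars*, *Vars*, *Hars*, *Wars*, *Cars*, *Hars2* and *Pars2* were among those not matched and were not analysed here. The letters TGATGNAA, read on both strands, were found in 5 of 13 promoters of cytosolic enzymes (38.5%), in 0 of 15 of mitochondrial enzymes and in 0 of 4 of scaffold proteins. Over the 16059 promoters of genes in the count table the share was 2.35%, and over all 32851 promoters it was 3.97%. The E-box CACGTG, which MYC and its relatives bind, was found in 4 of the 13 cytosolic promoters (30.8%: *Iars*, *Aars*, *Tars* and *Farsb*) and in 1 of the 15 mitochondrial ones (*Ears2*), against 9.37% of promoters of genes in the count table. No match of the first motif overlapped one of the second. A match is a description of the letters, not evidence of binding. The 5 genes with the first motif are shown with 52 bases of their own strand, 5′ to 3′, with the matched letters in capitals. In *Yars* the capitals read as the motif is spelled, and in the other genes they are its reverse complement.
*Iars* (isoleucine; chr13:49682098-49682149, plus strand): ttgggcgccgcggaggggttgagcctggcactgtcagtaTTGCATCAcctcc
*Gars* (glycine; chr6:55037945-55037996, plus strand): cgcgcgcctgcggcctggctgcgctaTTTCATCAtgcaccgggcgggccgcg
*Aars* (alanine; chr8:111033704-111033755, plus strand): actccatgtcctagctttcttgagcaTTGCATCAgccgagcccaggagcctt
*Tars* (threonine; chr15:11399648-11399699, minus strand): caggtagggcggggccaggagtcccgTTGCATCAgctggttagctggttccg
*Yars* (tyrosine; chr4:129189871-129189922, plus strand): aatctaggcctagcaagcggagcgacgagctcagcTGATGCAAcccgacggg
Counted from the start listed for each promoter at 0, the match begins at 7 in *Iars*, -30 in *Gars*, -112 in *Aars*, -15 in *Tars* and 3 in *Yars*. This start is not the first base of the gene in the GENCODE annotation, where *Aars* begins at 111033144, before the bases shown. *Aars* has a second match at 9, not shown.

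To ask whether the synthetase genes differed between the groups, all genes that passed edgeR's filter on low counts were tested with its quasi-likelihood test. An adjusted p under 0.05 was reached by 67 of 8551 genes (0.784%), 40 with a higher level in cKO (0.468%) and 27 with a lower level (0.316%). With scaling by total counts alone, 49 of 67 were higher and 18 lower. Among the synthetase genes 39 were tested, and 0 of them passed in edgeR. DESeq2 with its default settings called 27 of the 4007 genes to which it gave an adjusted p (0.674%), 12 higher and 15 lower in the libraries labelled cKO. Of the members 23 had such a value, among them all cytosolic enzymes and 1 mitochondrial one, and 0 were called. A figure legend of the study, which also ran DESeq2 with default parameters, gives the split of called genes the other way round. It counts 12 genes as down and 15 as up between control and cKO. The legend gives counts only, so the directions of single genes cannot be compared, and why the splits differ was not tested. Muscle differentiation is reported by the study as up-regulated in cKO, and all 13 tested markers of differentiated muscle lay above 0 here. At an unadjusted p under 0.05 edgeR gave 2 members, *Farsb* and *Cars*, both lower in cKO. The number of such members was 6 without cKO library 1, and 0 without control library 2 or without cKO library 2. With all libraries, 11.9% of all genes tested passed this threshold, 5.78% with a lower and 6.14% with a higher level in cKO. The fold changes lay below 0 for 30 of the 39 members, against 49.8% of all genes tested. The median log2 fold change of the members was -0.14, while that of all genes tested was 0.00. Scaling by total counts alone moved all genes together, to a median of 0.08, so that 21 of the 39 members and 38.1% of all genes lay below 0, and 30 members lay below the median of all genes as before. With cyclic loess normalisation 26 members lay below 0, and without control library 2 there were 24. Every cKO library lay below every control library in 5 members, among them *Farsb*, *Cars*, *Rars* and *Eef1e1*, or 12.8%, where 8.56% of all genes tested did so. In 0 members did every cKO library lie above every control library, where 7.87% of all genes tested did so. *Wars2*, the mitochondrial enzyme for tryptophan, had 5, 11 and 13 counts in control against 8, 7 and 5 in cKO and did not pass the filter.

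**Figure D1:**
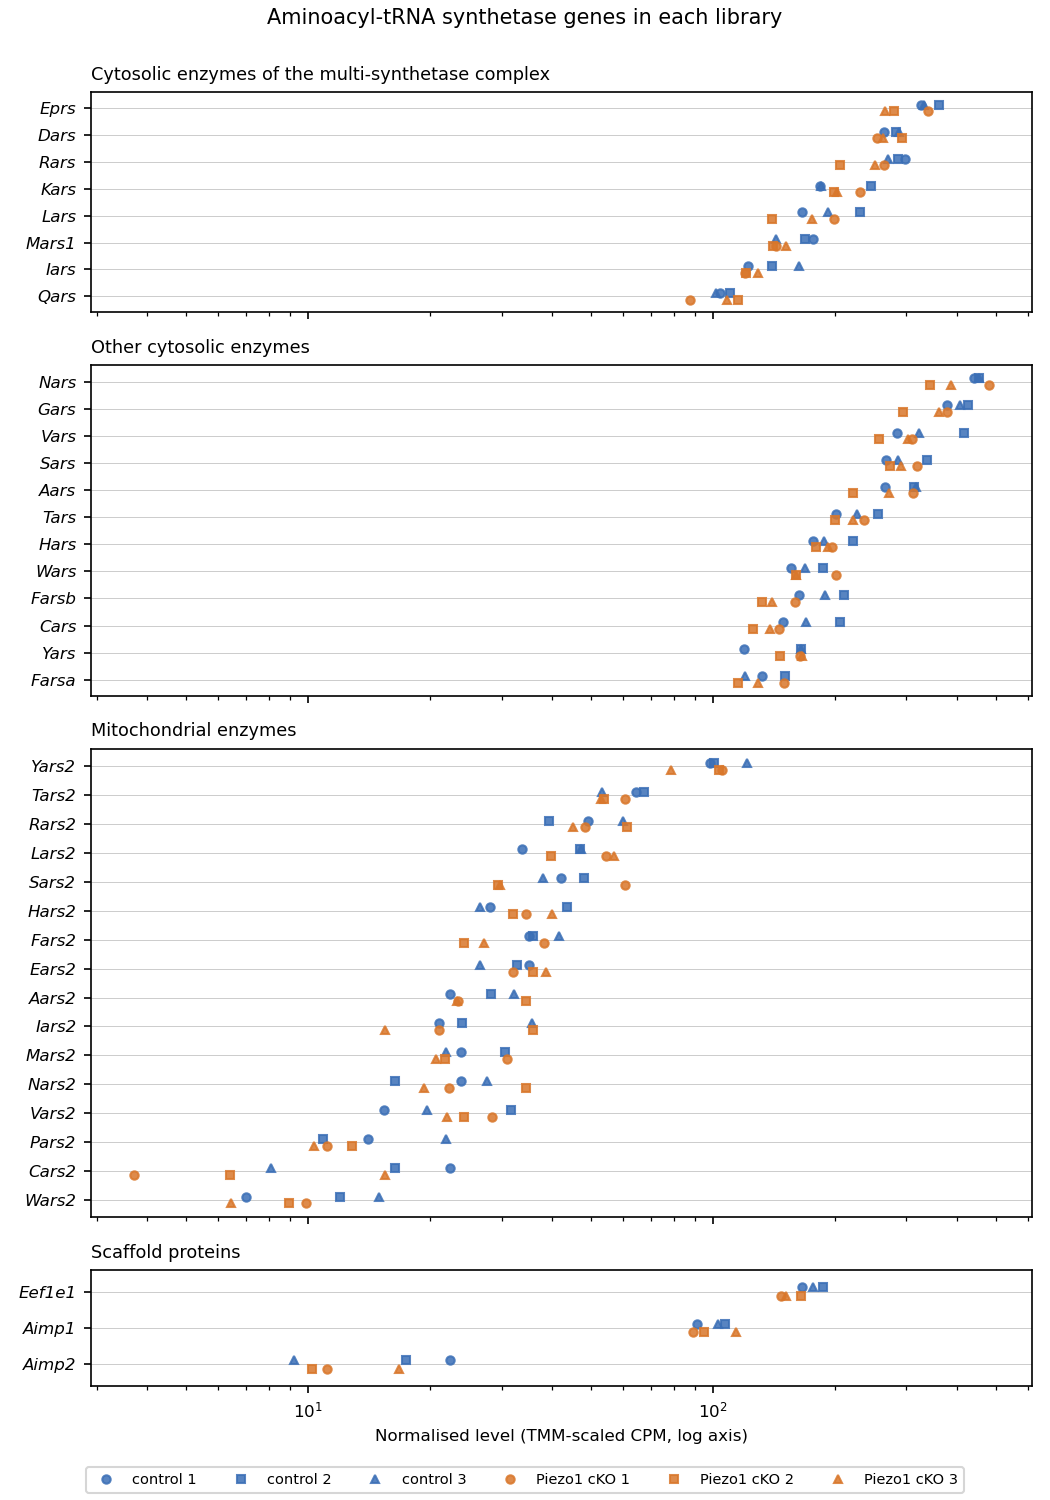
Level of 39 of the 40 genes in each library, in TMM-scaled CPM on a log axis, by class of protein. Blue symbols are control libraries and orange symbols are libraries labelled Piezo1 cKO, with circle, square and triangle for replicates 1, 2 and 3. The 2 groups overlap for most genes and are apart for Farsb, Cars, Rars and, by a narrow margin, Eef1e1.

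The cytosolic enzymes carried most of the synthetase counts and gave the most precise values. Their counts lay between 71 and 417 per gene and library, and the standard errors of their log2 fold changes between 0.134 and 0.165. Of the 20 genes, 17 had a fold change below 0, with a median log2 fold change of -0.15 and a range from -0.38 to 0.08, and 0 passed the adjusted threshold in edgeR, with 2 at an unadjusted p under 0.05. With total counts alone 11 of the 20 lay below 0 and 17 below the median of all genes. With cyclic loess normalisation 13 lay below 0. The median was -0.08 with total counts alone, where all genes had moved up alike, -0.05 with cyclic loess normalisation, -0.06 without control library 2 and -0.09 without cKO library 2. With all libraries the 95% confidence intervals excluded 0 for *Farsb* and *Cars*. Without control library 2, or without cKO library 2, 0 members had an unadjusted p under 0.05. Over all 20 genes the intervals with all libraries reached from -0.68 to 0.38 on the log2 scale. Changes larger than these bounds in either direction would lie outside the interval of every cytosolic enzyme.

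**Figure D2:**
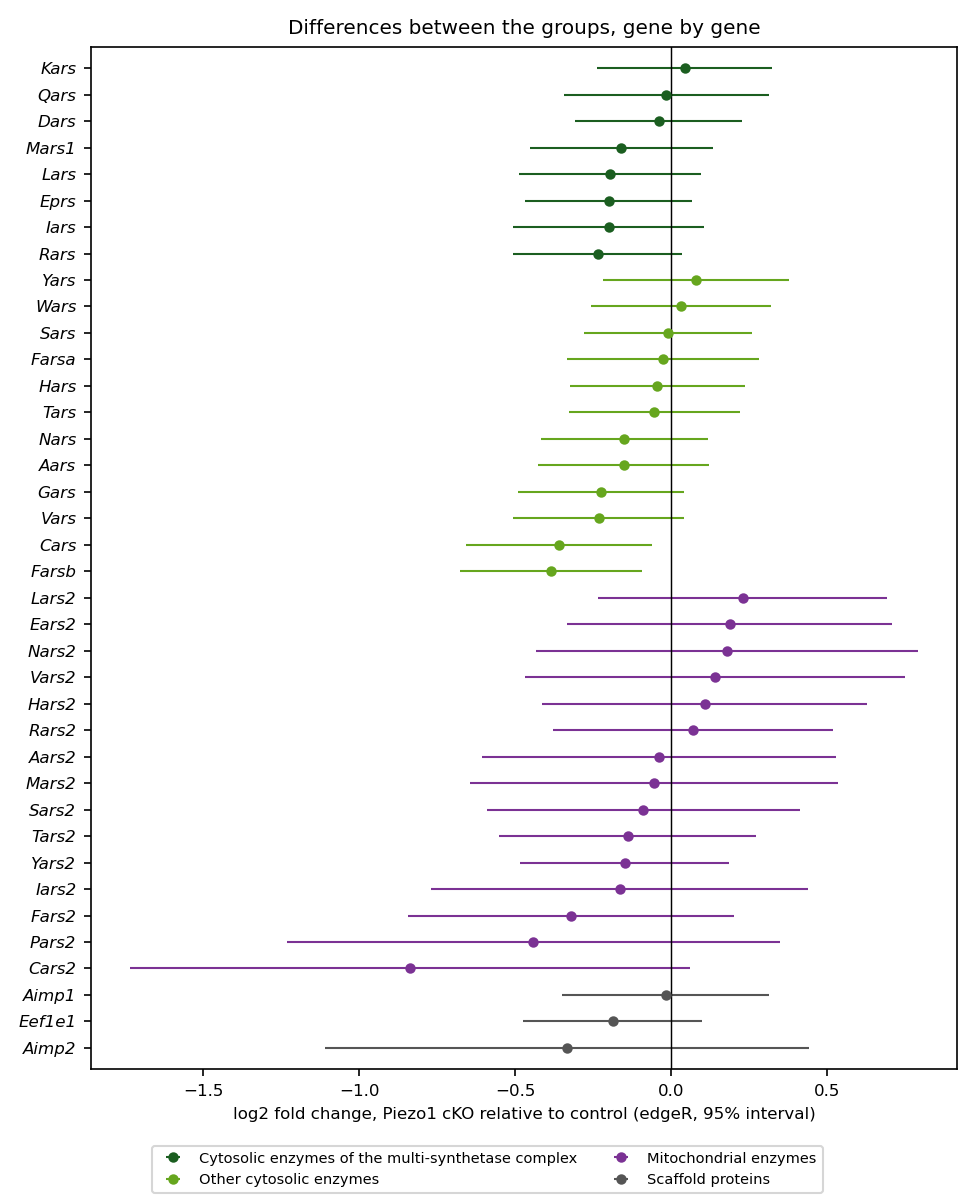
Log2 fold change of 38 of the 39 tested genes in Piezo1 cKO relative to control from edgeR (points) with its 95% confidence interval (lines), ordered within each class. The intervals of Farsb and Cars lie below 0, those of the other genes cross 0, and the lines are longer for the mitochondrial enzymes, whose standard errors run from 0.168 to 0.450.

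Within the multi-synthetase complex, 7 of the 8 enzymes (*Eprs*, *Dars*, *Rars*, *Lars*, *Mars1*, *Iars* and *Qars*) had a fold change below 0 and *Kars*, the lysine enzyme, one of 0.04 (SE 0.141). The median was -0.18 on the log2 scale. *Rars*, the arginine enzyme, was at 297, 286 and 269.7 CPM in control and at 264, 206 and 250.4 CPM in cKO. All 3 control libraries lay above all cKO libraries, but the gap between the groups was narrow. The log2 fold change was -0.24 (SE 0.136, adjusted p = 0.502 in edgeR), and -0.14 without cKO library 2. *Eprs*, the enzyme for glutamate and proline, was at 327, 361 and 332 CPM in control and at 338, 280.2 and 266 CPM in cKO. Here cKO library 1 lay within the control range and the other two below it, which gave a log2 fold change of -0.20 (SE 0.134, adjusted p = 0.584 in edgeR), -0.31 when cKO library 1 was left out, -0.13 without cKO library 3, -0.12 with total counts alone and -0.10 with cyclic loess normalisation. *Lars*, the leucine enzyme, which is also known as a leucine sensor of the mTORC1 pathway, was at 165, 230.0 and 192 CPM in control and at 199, 139 and 176 CPM in cKO. These values were interleaved, with control library 2 highest and cKO library 2 lowest (log2 fold change -0.19, SE 0.147, adjusted p = 0.648 in edgeR). Single libraries decided its size, which was -0.06 without control library 2, -0.07 without cKO library 2, -0.29 without control library 1 and -0.32 without cKO library 1. *Dars*, the aspartate enzyme, was at 264, 282 and 288 CPM in control and at 253, 293 and 263 CPM in cKO. Its groups overlapped almost fully (log2 fold change -0.04, SE 0.134, adjusted p = 0.948 in edgeR), and the sign turned with cyclic loess normalisation (0.05) and, by the shift of all genes, with total counts alone (0.04).

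Of the 12 cytosolic enzymes outside the complex, 10 had a fold change below 0, with a median of -0.10 on the log2 scale. *Farsb* encodes the beta subunit of phenylalanyl-tRNA synthetase and is found on the minus strand of chromosome 1 (GRCm38, 78417975 to 78488897). It was at 163, 210.3 and 189 CPM in control and at 159, 132 and 139 CPM in cKO. All cKO libraries were below all control libraries, although cKO library 1 and control library 1 were close. The means were 187 ± 23.9 CPM in control against 143 ± 14.2 CPM in cKO (SD, n = 3 each). On the log2 scale the fold change was -0.38 (SE 0.147, 95% confidence interval from -0.68 to -0.09, adjusted p = 0.234 in edgeR and 0.514 in DESeq2). *Farsa*, the alpha subunit of the same enzyme, had a log2 fold change of -0.03 (SE 0.155, adjusted p = 0.968 in edgeR), so the 2 subunits were not measured as moving by the same amount, a difference that was not tested. *Cars*, the cysteine enzyme, on the minus strand of chromosome 7 (143557230 to 143600090), was at 149, 206 and 169 CPM in control and at 146, 125 and 138 CPM in cKO. Its groups did not overlap, and again the lowest control and the highest cKO library were both replicate 1. The log2 fold change was -0.36 (SE 0.150, 95% confidence interval from -0.66 to -0.06, adjusted p = 0.293 in edgeR and 0.575 in DESeq2). In both genes control library 2 was highest. Without it the log2 fold change was -0.29 for *Farsb* and -0.22 for *Cars*, so that the latter moved by over 1.5 times.

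*Nars*, the asparagine enzyme, was at 440.2, 454 and 453 CPM in control and at 480.4, 343 and 387 CPM in cKO. The control libraries lay close together and the cKO libraries on both sides of them, with a log2 fold change of -0.15 (SE 0.135, adjusted p = 0.717 in edgeR) that was -0.05 without cKO library 2 and -0.30 without cKO library 1. The other scalings gave -0.08 (total counts alone) and -0.03 (cyclic loess). *Gars*, the glycine enzyme of both compartments, was at 377, 426 and 407 CPM in control and at 378, 294 and 360.1 CPM in cKO. The groups touched at their edges, with replicate 1 of each at nearly the same level (log2 fold change -0.23, SE 0.134, adjusted p = 0.516 in edgeR, -0.13 without cKO library 2 and -0.11 with cyclic loess normalisation). Of the other enzymes outside the complex, *Vars* (valine, log2 fold change -0.23) and *Aars* (alanine, -0.15) lay lowest, *Sars* (serine), *Tars* (threonine) and *Hars* (histidine) lay between -0.05 and -0.01, and *Wars* (tryptophan, 0.03) and *Yars* (tyrosine, 0.08) lay above 0. None of these differences passed the adjusted threshold in edgeR, where their adjusted p-values ran from 0.516 to 0.987. The 5 genes whose promoters hold the ATF4 and C/EBP motif shown above had log2 fold changes of -0.20 for *Iars*, -0.23 for *Gars*, -0.15 for *Aars*, -0.05 for *Tars* and 0.08 for *Yars*. They were not tested against the other enzymes. The 9 class I cytosolic enzymes, which share a Rossmann fold in the catalytic domain, had a median log2 fold change of -0.19, and the 10 class II enzymes had a median of -0.05, with *Eprs*, which holds a domain of each class, in neither. Whether the 2 classes differed was not tested.

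The mitochondrial enzymes were measured at fewer counts. Of 17 genes 16 were tested, 10 with a fold change below 0 and 6 above, with a median of -0.07 on the log2 scale and a range from -0.84 (*Cars2*) to 0.23 (*Lars2*). With total counts alone the median was at 0.00 and 8 of the 16 lay below 0, while 10 lay below the median of all genes, which moved by the same step. With 1 library left out the median ran from -0.14 (without cKO library 1) to 0.05 (without cKO library 3). In edgeR 0 genes passed the adjusted threshold, 0 had an unadjusted p under 0.05, and every 95% confidence interval held 0. *Fars2*, the single-subunit mitochondrial phenylalanine enzyme, was at 35.1, 36.0 and 41.5 CPM in control and at 38.3, 24.3 and 27.1 CPM in cKO. Libraries 2 and 3 of the cKO group lay below all controls and library 1 among them (log2 fold change -0.32, SE 0.263, adjusted p = 0.685 in edgeR). Its value was -0.54 without cKO library 1 and -0.20 without cKO library 2.

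*Cars2*, the mitochondrial cysteine enzyme, had 16, 15 and 7 counts in control against 3, 5 and 12 in cKO, or 22.4, 16.3 and 8.07 CPM against 3.70, 6.40 and 15.5 CPM. It had the lowest fold change of all members, but the groups overlapped and 1 library was at the floor of 3 counts. Its log2 fold change of -0.84 (SE 0.450, adjusted p = 0.458 in edgeR) ranged from -1.57 without cKO library 3 to -0.48 without cKO library 1, and was -0.52 without control library 1. *Yars2*, the mitochondrial tyrosine enzyme, was at 98.1, 100.3 and 121 CPM in control and at 105, 104 and 78.7 CPM in cKO, with overlapping groups (log2 fold change -0.15, SE 0.168, adjusted p = 0.803 in edgeR, -0.04 without control library 3 and -0.03 without cKO library 3). *Tars2*, the mitochondrial threonine enzyme, was at 64.5, 67.6 and 53.0 CPM in control and at 60.5, 53.7 and 52.9 CPM in cKO, also with overlapping groups (log2 fold change -0.14, SE 0.207, adjusted p = 0.863 in edgeR, -0.06 without control library 2 and -0.24 without control library 3). Among the others, *Pars2* (proline, -0.44), *Iars2* (isoleucine, -0.16), *Sars2* (serine, -0.09), *Mars2* (methionine, -0.06) and *Aars2* (alanine, -0.04) lay below 0 on the log2 scale, while *Lars2* (leucine, 0.23), *Ears2* (glutamate, 0.19), *Nars2* (asparagine, 0.18), *Vars2* (valine, 0.14), *Hars2* (histidine, 0.11) and *Rars2* (arginine, 0.07) lay above it.

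Setting the cytosolic and mitochondrial enzymes for the same amino acid side by side gave 17 pairs with both fold changes, in which *Eprs* stands for glutamate and for proline and *Fars2* is paired with each subunit of the cytosolic enzyme. Both enzymes lay below 0 in 10 pairs, 0 pairs had both above 0, and in 6 pairs the cytosolic enzyme lay below and the mitochondrial one above 0. The tyrosine pair was the reverse, with *Yars* at 0.08 and *Yars2* at -0.15. Cysteine was the pair with the lowest sum, with *Cars* at -0.36 and *Cars2* at -0.84, and the leucine pair was spread most among the 6, with *Lars* at -0.19 and *Lars2* at 0.23. No difference between partners was tested.

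**Figure D3:**
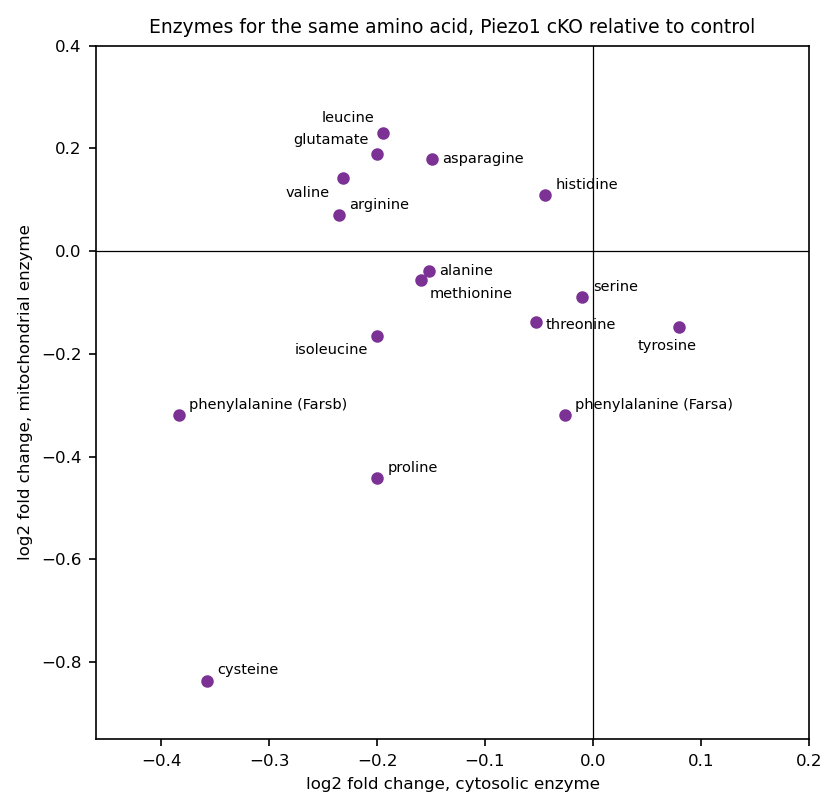
Log2 fold change of the cytosolic enzyme (x axis) and of the mitochondrial enzyme (y axis) for the same amino acid, 1 point for each of 16 of the 17 pairs, Piezo1 cKO relative to control. In the plot 9 pairs lie below 0 on both axes, 6 lie at the upper left, and tyrosine alone lies at the lower right.

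The 3 scaffold proteins had fold changes below 0, with a median of -0.19 on the log2 scale, and 0 of 3 passed in edgeR at either the adjusted threshold or an unadjusted p under 0.05. The median was -0.07 without control library 1, -0.11 with total counts alone and -0.09 with at least 10 counts in every library, where *Aimp2* drops out. *Eef1e1*, which encodes AIMP3, was at 165, 186 and 176 CPM in control and at 147, 165 and 151 CPM in cKO. The groups met without overlapping, since cKO library 2 lay just under control library 1 (log2 fold change -0.19, SE 0.145, adjusted p = 0.659 in edgeR). *Aimp1*, whose product is also cut and secreted as a cytokine, was at 91.1, 107 and 103 CPM in control and at 88.9, 94.7 and 114 CPM in cKO. Its values were interleaved, with a log2 fold change of -0.02 (SE 0.168, adjusted p = 0.982 in edgeR) that was 0.06 with total counts alone, a step no larger than that of all genes. *Aimp2*, the core scaffold, had between 8 and 16 counts per library and was at 22.4, 17.4 and 9.22 CPM in control and at 11.1, 10.2 and 16.8 CPM in cKO, with overlapping groups (log2 fold change -0.33, SE 0.390, adjusted p = 0.814 in edgeR). Its value ranged from -0.62 without control library 3 to -0.07 without control library 1, and was -0.58 without cKO library 3 and -0.21 without cKO library 2.

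Summed over the 20 cytosolic enzymes, the level was 4367, 5164 and 4684 CPM in control and 4686, 3939 and 4305 CPM in cKO. Control library 2 was highest and cKO library 2 lowest, and the groups overlapped because cKO library 1 lay above control libraries 1 and 3. The means were 4738 ± 401 CPM in control against 4310.0 ± 374 CPM in cKO (SD, n = 3 each), a difference of -428 CPM that was about the size of the SDs. The difference was -198 CPM without control library 2, -244 CPM without cKO library 2, -625 CPM without cKO library 1 and -197 CPM with total counts alone. Taken gene by gene, control library 2 was the highest of the 6 for 11 of the 20 cytosolic enzymes, and cKO library 2 was the lowest for 11. The 17 mitochondrial enzymes summed to 579, 630.0 and 639.7 CPM in control and to 616, 592 and 537 CPM in cKO, again with overlap. The ratio of cytosolic to mitochondrial counts was 7.69 ± 0.455 (SD, n = 3) in control and 7.42 ± 0.701 (SD, n = 3) in cKO. This ratio of the 2 gene classes differed by less than the spread between libraries. It is not a balance between the compartments, because *Gars* and *Kars*, which encode both forms, were counted as cytosolic. They averaged 374 and 208 CPM over the 6 libraries. The scaffold proteins summed to 279, 311 and 288 CPM in control and to 247, 269.9 and 281 CPM in cKO, where cKO library 3 lay just above control library 1.

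The libraries also differed in markers of the state of the cells. All 13 tested markers of differentiated muscle lay above 0, with a median log2 fold change of 2.01, and 2 of them rose at the adjusted threshold in edgeR, *Actn3* and *Tnni2*, which encode sarcomere proteins (adjusted p = 1.02e-05 and 0.00459). DESeq2 also called 2, *Actn3* and *Acta1*. The whole list of 22 genes in the table summed to 613, 239 and 516 CPM in control and to 922, 2498 and 1249.5 CPM in cKO, and its most abundant gene was *Acta1*, skeletal muscle actin, at 72.9 ± 16.7 CPM in control against 293 ± 146 CPM in cKO (SD, n = 3 each). All 15 proliferation markers lay below 0, with a median of -0.30 on the log2 scale and 0 with an adjusted p under 0.05 in edgeR. At an unadjusted p under 0.05 edgeR gave 6 of the 15, where 5.78% of all genes tested were lower. The proliferation markers summed to 2967, 3499.6 and 3181 CPM in control and to 3088, 2350.0 and 2597 CPM in cKO. Their most abundant gene was *Ccnb1*, the mitotic cyclin B1. For the differentiation list, the lowest sum was in control library 2 and the highest in cKO library 2. For proliferation markers and for cytosolic synthetases this order was turned around, with control library 2 highest and cKO library 2 lowest. The part of cell state in the synthetase values was not tested.

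**Figure D4:**
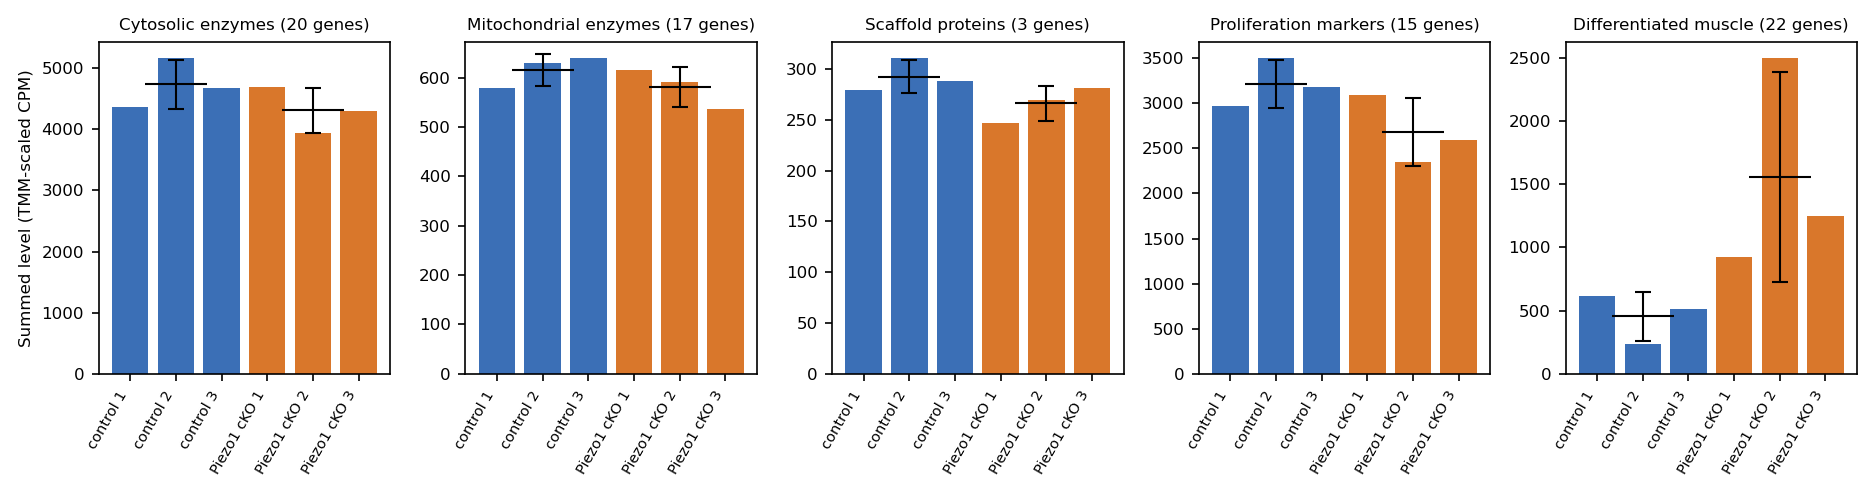
Summed level in TMM-scaled CPM of the cytosolic enzymes, mitochondrial enzymes, scaffold proteins, proliferation markers and differentiated muscle markers in each library, on axes that start at 0. Blue bars are control and orange bars are Piezo1 cKO libraries, and the black marks give the mean and SD of the 3 libraries of a group. Control library 2 and Piezo1 cKO library 2 are the extremes for the cytosolic enzymes (5164 and 3939 CPM) and, in opposite order, for the differentiated muscle markers (239 and 2498 CPM).

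Markers of other cell types were also examined. The 6 endothelial genes in the table summed to between 8.07 and 20.7 CPM per library, with *Tie1* at 0 in every library and *Tek* the most abundant. The 6 Schwann cell genes summed to between 2.56 and 8.41 CPM, with *Ncmap* at 0 in every library. The 6 haematopoietic genes summed to 84.0 ± 6.19 CPM in control against 93.7 ± 9.04 CPM in cKO (SD, n = 3 each), with *Laptm5* the most abundant. Of 9 fibro-adipogenic and fibroblast genes, with *Pi16* at 0 and *Col3a1* the most abundant, 4 were tested and 1, *Dcn*, fell, from 31.0 ± 10.1 to 6.72 ± 3.02 CPM (SD, n = 3 each, adjusted p = 0.000387 in edgeR). *Ly6a*, which encodes the negative sort marker Sca-1, had 2, 2 and 3 counts in control against 5, 8 and 9 in cKO, so that every cKO library lay above every control at levels too low for the edgeR fit. *Cd34*, which is also known from MuSCs and was not a sort marker, at 122 ± 58.5 CPM in control and 40.9 ± 10.1 CPM in cKO (SD, n = 3 each), was called lower by DESeq2 (adjusted p = 0.000824) and not by edgeR (log2 fold change -1.59, adjusted p = 0.181). *Col3a1* averaged 192 ± 64.6 CPM in control against 255 ± 19.3 CPM in cKO (SD, n = 3 each; log2 fold change 0.41, adjusted p = 0.265 in edgeR). The list summed to 398 ± 83.3 CPM in control against 362 ± 7.84 CPM in cKO (SD, n = 3 each). The 6 smooth muscle and pericyte genes summed to 48.1 ± 7.73 CPM in control against 84.3 ± 16.7 CPM in cKO (SD, n = 3 each), with *Cspg4* the most abundant and the one gene tested. The part of such cells in the synthetase values was not tested.

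The rest of the charging pathway was followed with lists of its other genes. Of 14 tested charging partners and synthetase-like genes 6 lay above and 8 below 0, with a median log2 fold change of -0.04 and 0 passing in edgeR at either the adjusted threshold or an unadjusted p under 0.05. Those with the smallest p were *Ptrh2* (0.25) and *Mtfmt*, the mitochondrial formyltransferase (0.31), above 0, and *Sepsecs*, which makes selenocysteine on its tRNA (-0.64), and *Qrsl1*, part of the enzyme that makes mitochondrial glutaminyl-tRNA (-0.51), below it. Of 25 tRNA processing and export genes 9 lay above and 16 below 0 (median -0.07, 0 passing at either threshold), with *Pop4* (0.16) and *Rpp25l* (0.14) above and *Tsen15*, a subunit of the splicing endonuclease (-0.36), and the exporter gene *Xpo5* (-0.31) below. Of 26 genes for RNA polymerase III and its factors, which transcribe tRNA genes, 12 lay above and 14 below 0 (median 0.00), with 0 adjusted calls and 1 in each direction at an unadjusted p under 0.05. *Gtf3c1*, the largest subunit of TFIIIC, was at 71.5, 62.1 and 76.1 CPM in control and at 90.1, 94.7 and 101 CPM in cKO. The cKO libraries all lay above the controls, with a log2 fold change of 0.45 (SE 0.179, adjusted p = 0.251 in edgeR). *Gtf3c3* (0.30) also lay above 0, while *Polr3g* (-0.45) and *Snapc4* (-0.54) lay below.

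Of 59 tested genes for tRNA modification 24 lay above and 35 below 0, with a median log2 fold change of -0.08. In edgeR 0 passed the adjusted threshold. At an unadjusted p under 0.05 edgeR gave 4 of the 59 lower and 0 higher, against 5.78% and 6.14% of all genes tested. *Yrdc*, which starts the synthesis of the t6A modification next to the anticodon, was at 156, 165 and 142 CPM in control and at 119.8, 110.0 and 124 CPM in cKO. The groups were apart, with a log2 fold change of -0.38 (SE 0.153, adjusted p = 0.260 in edgeR). *Mettl2*, a tRNA methyltransferase, was at -0.54, and *Trmt12* (0.70) and *Trmt5* (0.47) had the smallest p among the genes above 0.

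ATF4 targets and genes of amino acid supply were the list with the lowest median among these pathway lists, -0.19 on the log2 scale. Of 35 genes 26 were tested, 8 above and 18 below 0, with 0 adjusted calls in edgeR. At an unadjusted p under 0.05 there were 1 above and 4 below. Over all genes tested, edgeR gave 6.14% above and 5.78% below 0 at this unadjusted threshold. *Slc3a2*, the heavy chain that carries the large amino acid transporters to the plasma membrane, was at 338, 388 and 347 CPM in control and at 283, 234 and 276 CPM in cKO. Its groups were well apart, and its log2 fold change of -0.43 (SE 0.134, adjusted p = 0.117 in edgeR and 0.202 in DESeq2) did not pass. *Shmt2*, the mitochondrial serine hydroxymethyltransferase, was at 238, 293 and 224 CPM in control and at 233, 170.1 and 181 CPM in cKO, with overlap at cKO library 1 (log2 fold change -0.37, SE 0.142, adjusted p = 0.240 in edgeR). In the other direction, *Chac1*, which degrades glutathione and is a known ATF4 target, was at 11.2, 18.5 and 12.7 CPM in control and at 27.2, 21.7 and 20.7 CPM in cKO. All cKO libraries lay above the controls, on 8 to 22 counts per library (log2 fold change 0.69, SE 0.340, adjusted p = 0.406 in edgeR). *Sesn2*, another target, had a log2 fold change of 0.53 (SE 0.325) with overlapping groups, so the genes of this list did not all lie on the same side of 0.

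Several synthetase genes share exonic sequence positions with a gene on the opposite strand in the GENCODE annotation of GRCm38, and the sources used here do not state whether counting used strand. *Mars1* overlaps *Ddit3*, *Hars* overlaps *Hars2*, *Farsb* overlaps *Sgpp2*, *Cars2* overlaps *Naxd*, *Fars2* overlaps *Lyrm4* and *Nrn1*, *Ears2* overlaps *Ubfd1*, *Iars2* overlaps *Rab3gap2*, *Aimp1* overlaps *Tbck* and *Aimp2* overlaps *Eif2ak1*, and *Cars*, *Yars*, *Nars2*, *Vars2* and *Aars* overlap less well described transcripts. *Aars* also shares exon positions with *Exosc6* on its own strand. *Kars* has a pseudogene, *Kars-ps1*. How reads from these places were shared out is not known, and the levels of these genes are uncertain to that extent.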

How the data were processed

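Libraries were primed with oligo-dT and amplified by 12 PCR cycles. Per the labels and the methods, the authors used STAR (2.7.9a) on GRCm38, featureCounts (2.0.1) and UMI-tools (1.1.1). The deposited values are counts per gene, not normalised, with 1 column per library. The handling of multi-mapping reads is not given in the sources used here. Counts were analysed in R (4.3.3) with edgeR (4.0.16; TMM, robust quasi-likelihood fit, minimum count of 10, Benjamini-Hochberg adjustment over all genes tested, called at an adjusted p under 0.05), DESeq2 (1.42.0) and limma (3.58.1). Alternatives were other scalings (DESeq2 size factors, total counts, cyclic loess), other filters on low counts, thinning to the smallest total, the replicate number as a block and leaving out each library. The calculations were tested on simulated data. The members, the lists and the rules for naming genes were chosen with earlier results of these data known, so counts over them are descriptions. Values per library are given for the 3 members of each class with the smallest p and the 2 with the highest mean level, for all scaffold proteins and for the pathway genes with the smallest p in each direction, some by fold change only. Some single genes are counted within their lists but not reported here.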

Additional observations from a re-analysis of the deposited data

How the results depend on the processing

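No synthetase gene was called by edgeR, DESeq2, limma-voom or any other setting tried, and the smallest adjusted p of a member ranged from 0.115 (*Farsb* without cKO library 1) to 0.637 (*Farsb* without cKO library 2). The number of genes called in all was 67 in edgeR and 27 with DESeq2, 32 with cyclic loess normalisation (3 iterations), 129 with no filter on low counts and 6 to 174 when 1 library was left out, with 6 without cKO library 2. Replicate numbers are shared between the groups, but same-numbered libraries did not deviate together (correlations of -0.144, -0.203 and 0.0122). With so few libraries in each group, these correlations cannot tell whether same-numbered libraries were prepared together. With the replicate block 46 genes were called, 0 of them synthetase genes, and 30 of 39 members lay below 0, as without it. The median log2 fold change of the cytosolic enzymes stayed below 0 in all 15 alternatives, from -0.17 to -0.05, at -0.06 without control library 2. Total counts alone moved the median of all genes from 0.00 to 0.08, and the values under it moved by about this step. The mitochondrial median was then -0.00025, and it ranged from -0.140 to 0.0513 when 1 library was left out. The sign turned for *Dars* with total counts (0.0391), with cyclic loess (0.0470) and among the values with 1 library left out (-0.106 to 0.00242), and for *Aimp1* with total counts (0.0580) and with 1 library left out (-0.128 to 0.0529). The causes of the other changes were not tested. At this depth a cytosolic enzyme had a standard error of up to 0.165 and a mitochondrial one of up to 0.450 on the log2 scale.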
